A study of Arabidopsis thaliana with 24 samples.

Results

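The genes examined here encode 10 calcium transporters of Arabidopsis thaliana, 8 autoinhibited calcium ATPases (ACA1, ACA2, ACA4, ACA8, ACA10, ACA11, ACA12 and ACA13) and the cation/proton exchangers CAX1 and CAX3. They were taken by locus identifier from count tables that list 33245 genes, and all 10 were among the 20995 genes that passed the filter on low counts. RNA sequencing had measured polyadenylated RNA of seedlings of 4 genotypes: wild-type Col-0, p2k1-3 alone, bdg-8 alone, and both mutations together (p2k1-3 bdg-8, called the double mutant). Seedlings of each genotype received a mock treatment or ATP at 150 µM for 30 min, and each of the 8 groups has 3 libraries. P2K1 encodes the lectin receptor kinase that binds ATP outside the cell, and BDG1 an epidermal hydrolase needed for the cuticle. Age, growth conditions and the nature of the mutant alleles are not given in the labels. The labels do not say that replicates came from separate cultures, so the p-values rest on library-to-library spread that may be partly or wholly technical.

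Extracellular ATP opens calcium channels, and the rise of calcium in the cytosol is ended by transporters that carry the ion out of the cell or into the vacuole and the endoplasmic reticulum. Autoinhibited ATPases do this at the cost of ATP and, in most members, are switched on when calmodulin with bound calcium takes hold of an inhibitory tail. ACA8 and ACA10 reside in the plasma membrane, ACA4 and ACA11 in the vacuolar membrane and ACA2 in the endoplasmic reticulum. ACA12 and ACA13 form a separate branch of the family. CAX1 and CAX3 are antiporters of the vacuolar membrane, which exchange calcium for protons that the vacuolar proton pumps have moved inward.

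The genes lie on all chromosomes but form no cluster. In the RefSeq annotation of TAIR10.1, matched by locus identifier, ACA1 (AT1G27770) occupies chr1:9671632-9676307 and ACA13 (AT3G22910) chr3:8116292-8119490, both on the minus strand. Their nearest relatives among the members are ACA2 (AT4G37640, chr4:17682859-17687105) and ACA12 (AT3G63380, chr3:23406484-23410360), also on the minus strand. Coding sequences were identical at 72.96% of aligned bases between ACA1 and ACA2 and at 67.84% between ACA12 and ACA13. The other pairs were ACA4 and ACA11 (85.58%), ACA8 and ACA10 (72.81%) and CAX1 and CAX3 (78.45%). The count tables hold no coordinates, and the build used for counting is not given in the sources used here.

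The 250 bases before the annotated start of ACA1 and ACA13, the members with the largest ATP responses, are shown beside those of their relatives ACA2 and ACA12. The windows are chr1:9676308-9676557 for ACA1, chr3:8119491-8119740 for ACA13, chr4:17687106-17687355 for ACA2 and chr3:23410361-23410610 for ACA12, each read on the minus strand from 5′ to 3′. Capitals mark hexamers searched on both strands.
ACA1: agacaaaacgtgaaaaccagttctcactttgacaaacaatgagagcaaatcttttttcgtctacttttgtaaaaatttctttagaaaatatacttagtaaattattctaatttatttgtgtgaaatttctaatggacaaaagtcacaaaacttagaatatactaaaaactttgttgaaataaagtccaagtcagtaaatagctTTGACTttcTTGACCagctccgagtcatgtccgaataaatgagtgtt
ACA13: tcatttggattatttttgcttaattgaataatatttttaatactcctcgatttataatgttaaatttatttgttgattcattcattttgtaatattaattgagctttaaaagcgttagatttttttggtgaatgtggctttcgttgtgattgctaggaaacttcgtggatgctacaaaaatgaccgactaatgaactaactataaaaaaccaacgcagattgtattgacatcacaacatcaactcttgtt
ACA2: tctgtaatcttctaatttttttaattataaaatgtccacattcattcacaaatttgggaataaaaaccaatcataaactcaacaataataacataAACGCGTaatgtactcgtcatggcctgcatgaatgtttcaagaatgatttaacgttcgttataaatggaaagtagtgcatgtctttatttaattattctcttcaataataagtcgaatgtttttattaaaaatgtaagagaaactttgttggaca
ACA12: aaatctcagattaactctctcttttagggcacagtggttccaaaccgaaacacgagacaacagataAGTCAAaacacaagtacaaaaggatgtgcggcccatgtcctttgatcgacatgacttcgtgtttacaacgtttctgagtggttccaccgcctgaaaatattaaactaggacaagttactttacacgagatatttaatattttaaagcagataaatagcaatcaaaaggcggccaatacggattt
The hexamers were TTGACC and TTGACT, the core bound by WRKY factors, CGCGTT and ACGCGT, forms of the core bound by calmodulin-binding CAMTA factors, and CACGTG, the G-box. The ACA1 window holds TTGACT at positions -47 to -42 and TTGACC at -38 to -33, counted back from the gene start. The ACA2 window holds CGCGTT on the opposite strand at -155 to -150 and, overlapping it, ACGCGT at -154 to -149. The ACA12 window holds TTGACT on the opposite strand at -184 to -179. None of the 5 hexamers is in the ACA13 window, nor in those of ACA4, ACA8, ACA10, ACA11, CAX1 and CAX3. Over 33054 windows of the same length in the annotation, TTGACT occurred in 18.6%, TTGACC in 11.8%, CACGTG in 5.86%, CGCGTT in 2.53% and ACGCGT in 1.61%.

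Libraries held 25856588 to 35239775 counts in genes. P2K1, in CPM (counts scaled to library size, with TMM factors), averaged 21.4 ± 0.821 (SD, n = 3) in mock wild type against 12.1 ± 0.927 in mock p2k1-3. BDG1 averaged 25.4 ± 0.451 CPM in mock wild type against 14.2 ± 1.77 in mock bdg-8. Transcript of both genes thus remained in the mutants, and BDG1 rose with ATP to 107 ± 9.87 CPM in bdg-8. In every group replicate 3 lay between replicates 1 and 2 for more genes than either of these lay between the others. Among genes above 10 CPM its value fell between the other values for 42.7 to 58.3% of genes, against at most 27.6% for replicate 1 and 29.8% for replicate 2. Written as a weighted mean of the other replicates, replicate 3 was closest to them with a weight of 0.445 to 0.538 on replicate 1. Separate replicates of equal spread would also give a weight of this size, so the weight does not tell a mixture from a separate sample. The spread of counts between a pair of libraries was also taken, as chi-square per degree of freedom. In p2k1-3 with ATP it was 6.92 for replicates 1 and 3 and 5.13 for replicates 1 and 2. In bdg-8 with ATP it was 10.3 and 8.12, while in all other groups it was lower for replicates 1 and 3. For replicates 2 and 3 it was lower than for replicates 1 and 2 in every group, at 4.99 in p2k1-3 with ATP and 5.22 in bdg-8 with ATP. Whether replicate 3 is a separate sample or a mixture of the other replicates cannot be told from the labels and was not tested. If it is a mixture, each SD, SE and adjusted p given for 3 libraries rests on fewer independent libraries and is too small. Losses of calls with replicates 1 and 2 alone are therefore given beside the results. Over 160 values, 10 genes in 16 comparisons, 79 were called by edgeR at an adjusted p under 0.05, 28 of these calls were lost without replicate 3 and none changed sign.

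In mock-treated wild-type seedlings CAX1 and ACA4, both of the vacuolar membrane, had the highest levels per length. CAX1 stood at 94.6 ± 4.82 CPM per kilobase of annotated exon (SD, n = 3) and ACA4 at 45.5 ± 0.777. ACA8 followed at 24.2 ± 0.843, then ACA11 at 18.2 ± 1.15 and ACA10 at 16.7 ± 0.610, whose libraries overlapped. ACA1 at 14.3 ± 0.152 and ACA2 at 13.8 ± 0.830 overlapped as well. CAX3, ACA12 and ACA13 were lowest, at 7.64 ± 0.416, 2.84 ± 0.635 and 0.545 ± 0.0797 CPM per kilobase. After ATP the order in Col-0 began with CAX1 at 98.7 ± 3.86 and ACA1 at 63.5 ± 4.14, ahead of ACA4 at 48.3 ± 1.05 CPM per kilobase. In bdg-8 with ATP, ACA1 was the highest of the 10 genes at 125 ± 5.35 CPM per kilobase, above CAX1 at 109 ± 7.39, and their libraries did not overlap.

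**Figure D1:**
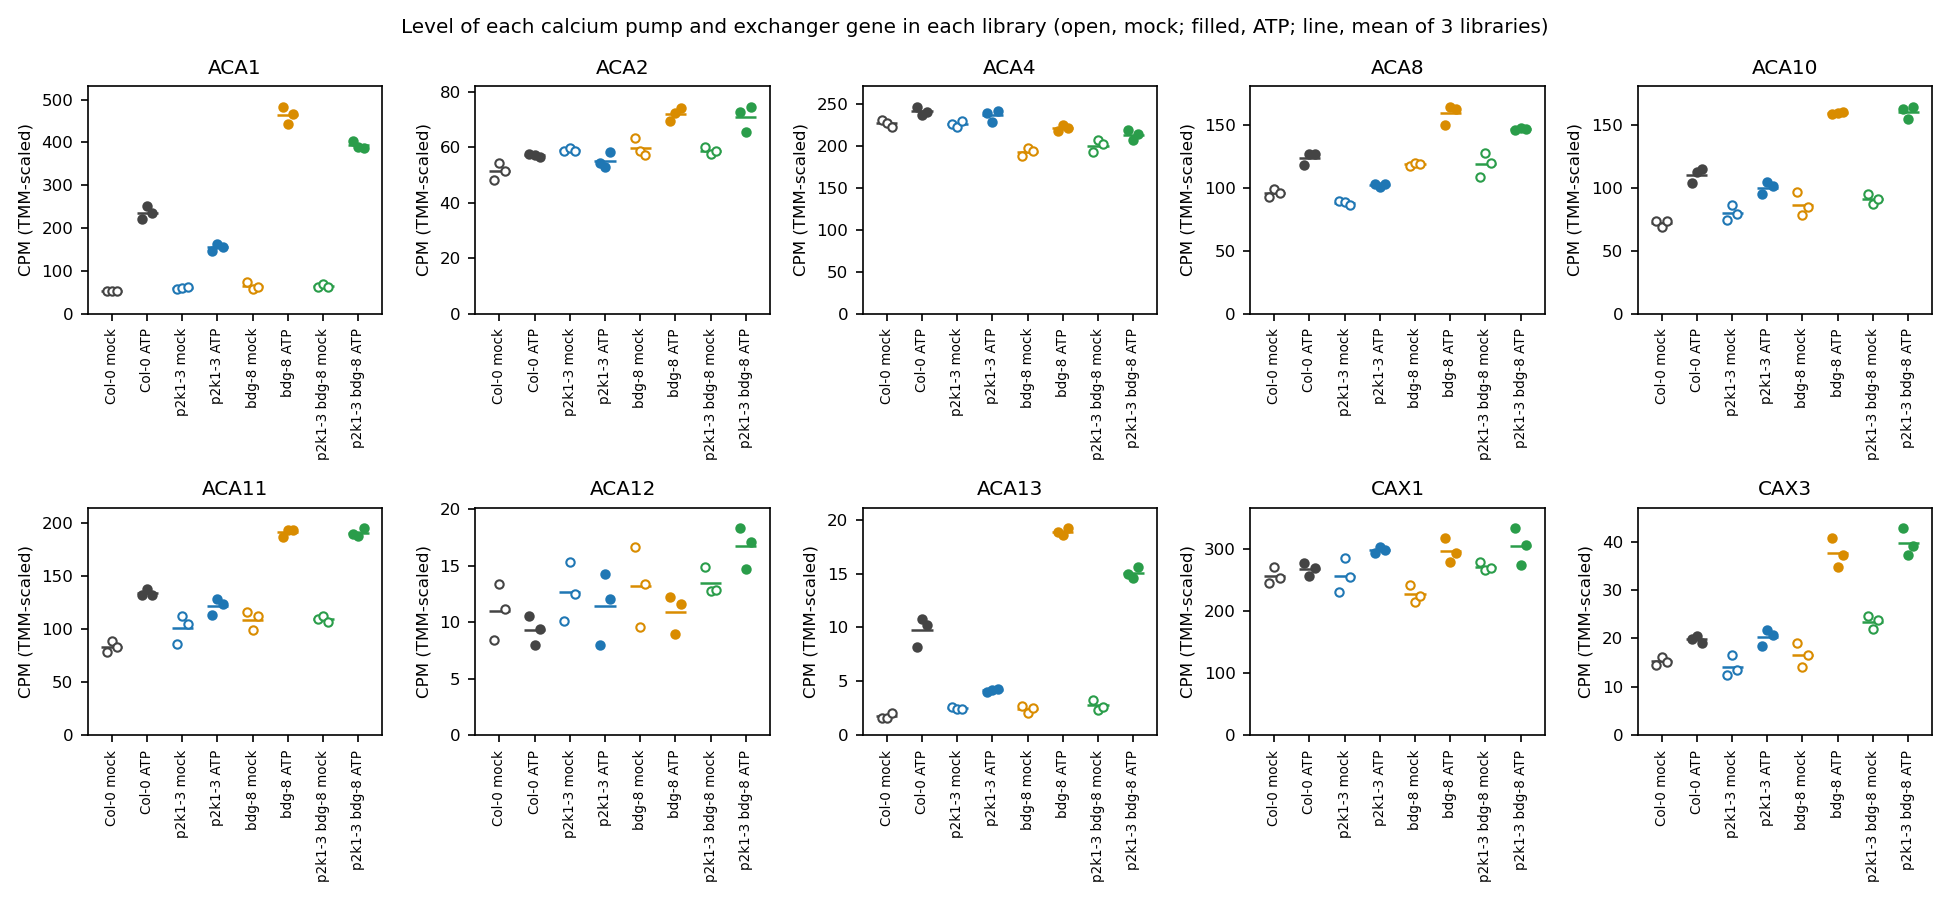
Level of each of the 10 genes in every library, as CPM scaled by TMM on axes that start at 0; open points are mock libraries, filled points ATP libraries and lines the mean of 3 libraries. ACA1 and ACA13 stand apart with ATP in every genotype, with ACA1 at 221 to 252 CPM in Col-0 and 444 to 484 CPM in bdg-8, while the ACA12 groups overlap in each genotype.

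The first comparison asked what ATP does to these genes in the wild type. Within 30 min 7 of the 10 genes rose in Col-0 and none fell, led by ACA1 and ACA13. Among all 20995 genes tested, 21.8% were called, 13.2% higher and 8.67% lower. The median log2 fold change was 0.37 over the 10 genes and -0.01 over all genes. In CPM the ATP libraries lay above the mock libraries for 8 genes, where groups did not overlap in either direction for 33.5% of all genes. Fewer cells of a type and less RNA per cell cannot be told apart in these whole-seedling libraries.

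ACA1 had 52.5, 53.6 and 53.3 CPM in the mock libraries of Col-0 and 221, 252 and 235 CPM in the ATP libraries. All ATP libraries were far above all mock libraries, at a log2 fold change of 2.15 ± 0.07 (SE, 4.44-fold, edgeR adjusted p = 5.6e-18). ACA2, the endoplasmic reticulum pump closest to it in sequence, had 48.1, 54.2 and 51.4 CPM in mock and 57.7, 57.1 and 56.6 CPM with ATP. The ACA2 groups did not overlap but lay close, at a log2 fold change of 0.16 ± 0.05 (edgeR adjusted p = 0.027). This call was lost without replicate 3 (adjusted p = 0.17 by edgeR), and without any one of Col-0 mock replicates 1 and 3 or Col-0 ATP replicates 1, 2 and 3, with log2 values of 0.11 to 0.16.

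ACA13 was the scarcest member in mock, with 44 to 65 counts and 1.57, 1.63 and 2.04 CPM in Col-0. With ATP its Col-0 libraries had 263 to 344 counts and 8.21, 10.8 and 10.2 CPM. All ATP libraries were higher than all mock libraries, at a log2 fold change of 2.47 ± 0.13 (5.53-fold, edgeR adjusted p = 5.7e-14). ACA12, its neighbour on the same branch, had 8.44, 13.4 and 11.2 CPM in mock and 10.5, 7.98 and 9.38 CPM with ATP. Those groups overlapped, and the log2 value of -0.24 ± 0.21 did not pass the test (edgeR adjusted p = 0.49), though without replicate 1 it was called lower (-0.50, edgeR adjusted p = 0.023).

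Of the vacuolar pumps, ACA11 rose and ACA4 did not pass the test. ACA11 (AT3G57330) had 78.0, 88.4 and 82.5 CPM in Col-0 mock and 132, 137 and 132 CPM with ATP, with no overlap, at 0.69 ± 0.07 (edgeR adjusted p = 2.6e-08). ACA4 (AT2G41560) had 231, 227 and 223 CPM in mock and 247, 236 and 240 CPM with ATP. Its groups did not overlap, but the log2 value of 0.09 ± 0.04 missed the threshold (edgeR adjusted p = 0.086). Both plasma membrane pumps rose. ACA10 (AT4G29900) went from 73.6, 68.9 and 73.3 CPM to 103, 112 and 114 CPM, at 0.61 ± 0.06 (edgeR adjusted p = 2.6e-08). ACA8 (AT5G57110) went from 92.8, 99.5 and 96.0 CPM to 118, 127 and 127 CPM, at 0.37 ± 0.05 (edgeR adjusted p = 8.2e-07). The groups of both genes were separate.

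Of the exchangers, CAX3 (AT3G51860) had 14.6, 16.2 and 15.2 CPM in Col-0 mock and 19.9, 20.6 and 19.1 CPM with ATP. Every ATP library was above every mock library, and the log2 fold change was 0.38 ± 0.10 (edgeR adjusted p = 0.0075). Without replicate 3 it was 0.39 with an edgeR adjusted p of 0.15. CAX1 (AT2G38170) had 245, 271 and 253 CPM in mock and 278, 257 and 269 CPM with ATP, groups that overlapped, at 0.06 ± 0.07 (edgeR adjusted p = 0.62). With replicates 1 and 2 alone, 5 genes were called higher in Col-0 (ACA1, ACA8, ACA10, ACA11 and ACA13). At that setting 2494 of all genes were called in either direction, against 4585 with all replicates.

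**Figure D2:**
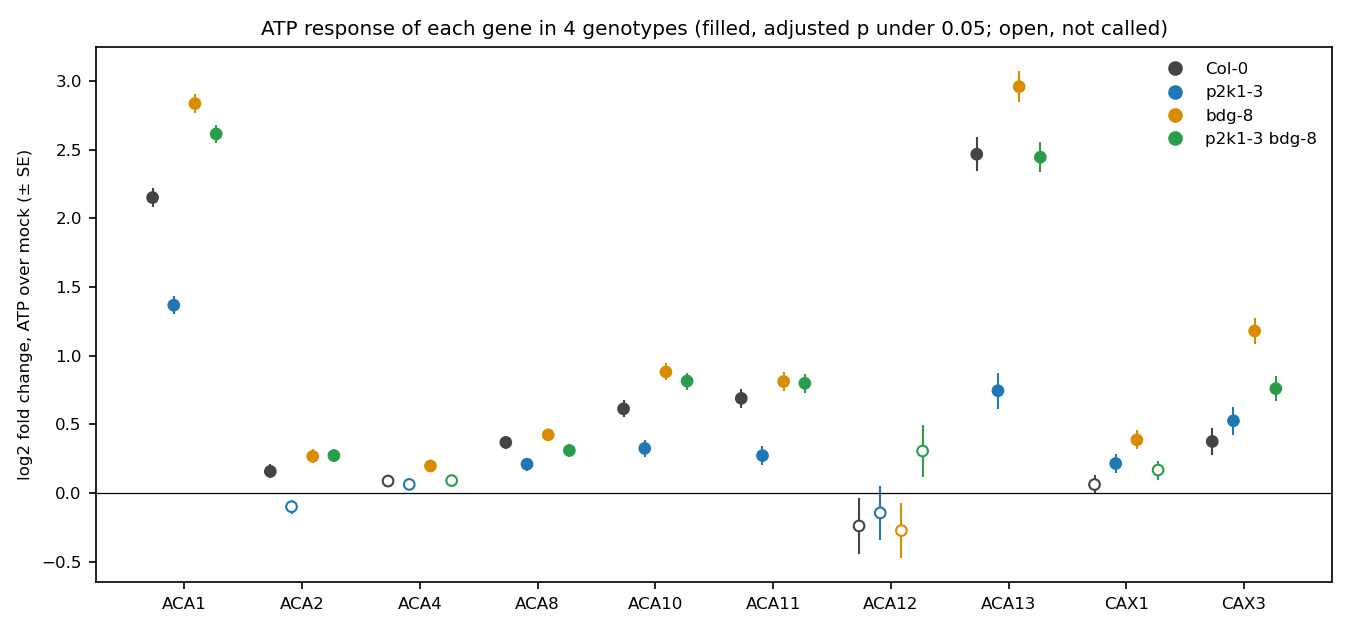
Log2 fold change of ATP over mock for each gene in the 4 genotypes, with bars of 1 SE from edgeR (3 libraries per group); filled points passed an adjusted p of 0.05. ACA1 and ACA13 are highest in every genotype, with the p2k1-3 values (1.37 and 0.74) below those of Col-0 (2.15 and 2.47), and no ACA12 value passed.

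Counts of ACA10 and ACA11 carry an uncertainty of annotation. In TAIR10.1 their exons share 50-base words with genes on the opposite strand, 10.4% of the words of ACA10 and 8.50% of those of ACA11, and the strand setting of the counting is not given in the sources used here. The partners of ACA10 that share the most of these words, AT4G08245 and AT4G08255, were listed at 0 counts in all libraries. A further gene on the opposite strand, AT4G29890, overlaps ACA10 by 116 bases and had 262 to 416 counts per library. Its log2 value with ATP was -0.09 in Col-0 (edgeR adjusted p = 0.51) and -0.06 in bdg-8 (edgeR adjusted p = 0.64). The partner of ACA11, AT3G57320, had 155 to 244 counts per library and a log2 value with ATP of -0.07 in Col-0 (edgeR adjusted p = 0.71) and -0.28 in bdg-8, where it was called lower (edgeR adjusted p = 0.040). ACA1 overlaps AT1G27760 by 26 bases, and that gene had a log2 value of -0.10 with ATP in Col-0 (edgeR adjusted p = 0.079). No other member shared a 50-base word with another annotated gene.

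The 8 ATPase genes together gained transcript with ATP, and ACA1 took a larger share of it. Their summed level was 136 ± 2.73 CPM per kilobase (SD, n = 3) in Col-0 mock and 219 ± 5.87 with ATP. It was 145 ± 5.20 and 184 ± 5.04 in p2k1-3, 150 ± 6.59 and 317 ± 3.07 in bdg-8, and 153 ± 3.29 and 293 ± 5.63 in the double mutant. ACA1 made up 10.5 ± 0.115% of the sum in Col-0 mock and 29.0 ± 1.14% with ATP, while the share of ACA4 went from 33.4 ± 1.03% to 22.1 ± 1.08%. With ATP the ACA1 share was 22.6 ± 0.718% in p2k1-3, 39.5 ± 1.46% in bdg-8 and 36.2 ± 0.635% in the double mutant, from 11.2 to 11.6% in mock. ACA13 did not exceed 1.87% of the sum in the mean of any group.

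**Figure D3:**
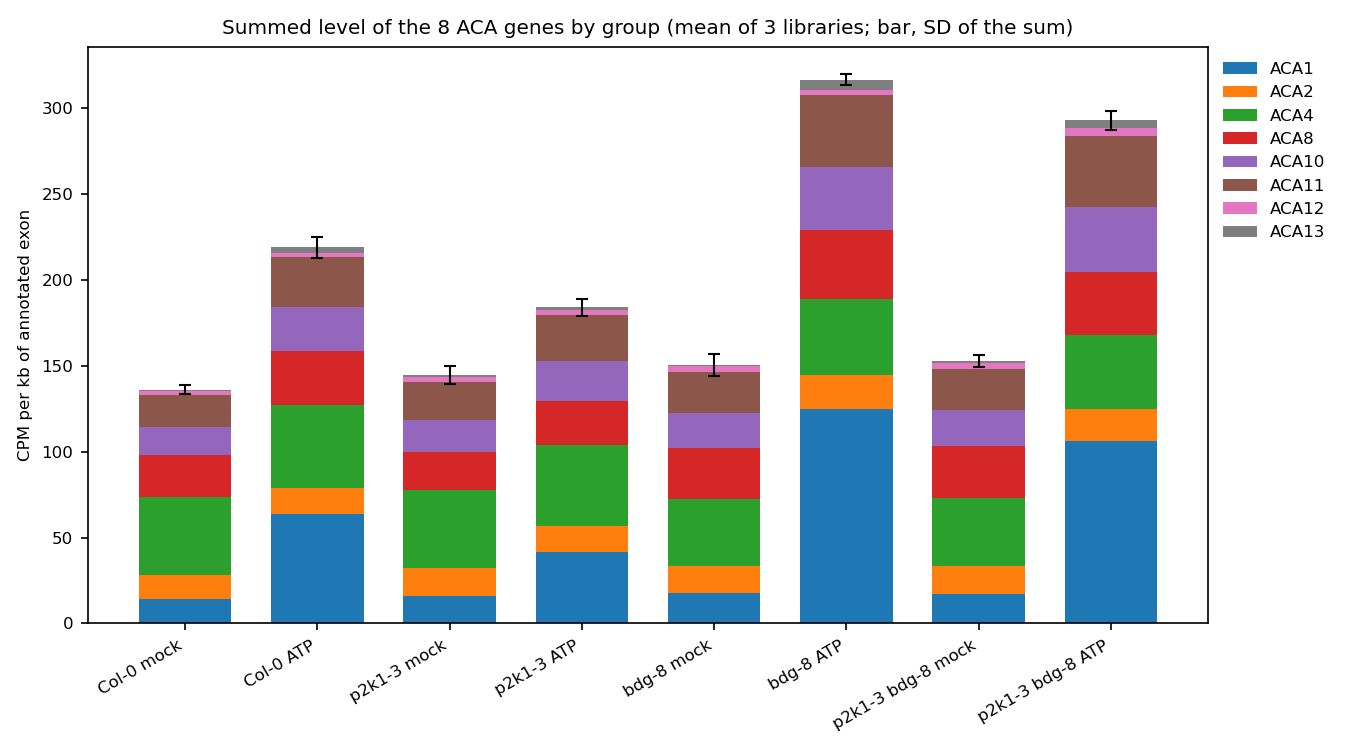
Summed level of the 8 ATPase genes in each group as stacked means of 3 libraries, in CPM per kilobase of annotated exon, with the SD of the sum as error bar. The ACA1 segment grows with ATP from 14.3 to 63.5 CPM per kilobase in Col-0 and reaches 125 in bdg-8, where the sum is 317.

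Within each pair of relatives, the member with the larger ATP response was compared with the other inside the same library, as the log2 ratio of counts (0.5 added to each), which does not depend on how libraries are scaled. The pairs were formed with these values known, so the ratios are given without a test. ACA1 over ACA2 was near 0 in mock, from 0.02 to 0.13 in the group means, and with ATP reached 2.04 in Col-0, 1.49 in p2k1-3, 2.69 in bdg-8 and 2.47 in the double mutant. The change of ACA13 over ACA12 was 2.69 in Col-0, 0.91 in p2k1-3, 3.22 in bdg-8 and 2.15 in the double mutant. Changes were smaller for ACA11 over ACA4 (0.22 to 0.71), CAX3 over CAX1 (0.31 to 0.80) and ACA10 over ACA8 (0.12 to 0.50). All ATP libraries of a genotype had higher ratios than its mock libraries, except in p2k1-3 for ACA11 over ACA4 and ACA10 over ACA8, where they overlapped.

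How far the response depended on the ATP receptor was asked in p2k1-3, first within the mutant and then as a difference from the wild type. In p2k1-3, 7 genes rose and none fell, where 20.4% of all genes were called, 11.9% higher and 8.53% lower. ACA1 had 57.6, 60.8 and 61.6 CPM in mock and 147, 163 and 155 CPM with ATP, at 1.37 ± 0.07 (2.58-fold, edgeR adjusted p = 4.8e-14). The receptor mutant therefore kept a separation of all its ATP libraries from its mock libraries for this gene, at a lower ATP level than Col-0. ACA13 had 2.61, 2.39 and 2.46 CPM in mock and 4.0, 4.19 and 4.32 CPM with ATP, again without overlap, at 0.74 ± 0.13 (1.68-fold, edgeR adjusted p = 1.4e-04).

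Rises of 0.21 to 0.53 were called in p2k1-3 for ACA8, ACA10, ACA11, CAX1 and CAX3. CAX3 rose by 0.53 ± 0.10 (edgeR adjusted p = 3.7e-04), ACA10 by 0.32 ± 0.06 (edgeR adjusted p = 3.8e-04) and ACA11 by 0.27 ± 0.07 (edgeR adjusted p = 0.0060). None of these 5 calls held with replicates 1 and 2 alone, which left ACA1 and ACA13 (edgeR adjusted p of 0.076 to 0.35 for the others). At that setting 1883 of all genes were called, against 4287 with all replicates. ACA11 was also lost without p2k1-3 mock replicate 1 (0.17, edgeR adjusted p = 0.055). CAX1 (0.21 ± 0.07, edgeR adjusted p = 0.029) was lost without p2k1-3 mock replicates 1 (0.14) or 3 (0.21), or p2k1-3 ATP replicates 2 (0.21) or 3 (0.22). ACA2 had a value of -0.10 ± 0.05, ACA4 of 0.06 ± 0.04 and ACA12 of -0.14 ± 0.20, none of them called. By library, 7 genes lay higher and ACA2 lay lower with ATP without overlap, where 37.4% of all genes did not overlap.

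The response was lower in p2k1-3 than in Col-0 for 4 of the 10 genes and higher for none, where 4.48% of all genes differed, 3.80% lower and 0.681% higher. The largest difference was that of ACA13 at -1.72 ± 0.19 (edgeR adjusted p = 2.6e-06), followed by ACA1 at -0.78 ± 0.09 (edgeR adjusted p = 6.6e-06). Both were called in all 20 alternatives, replicates 1 and 2 alone included. ACA11 differed by -0.42 ± 0.10 (edgeR adjusted p = 0.013) and lost the call without replicate 3 (-0.41, edgeR adjusted p = 0.49) or without p2k1-3 mock replicate 2 (-0.34, edgeR adjusted p = 0.055). ACA2 differed by -0.26 ± 0.07 (edgeR adjusted p = 0.039), a call that 13 of 20 alternatives did not keep. Among these were 9 of the 12 settings that leave out 1 library, all but those without Col-0 mock replicate 2, Col-0 ATP replicate 2 and p2k1-3 ATP replicate 3, with values from -0.26 to -0.21. ACA10 had a value of -0.29 ± 0.09 that missed the threshold (edgeR adjusted p = 0.067). It passed without replicate 1 of all groups (-0.36, edgeR adjusted p = 0.0039), Col-0 ATP replicate 1 (-0.33) or p2k1-3 mock replicate 1 (-0.34). The exchangers had 0.15 ± 0.10 for CAX1 and 0.15 ± 0.14 for CAX3.

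The same comparison in the cuticle mutant gave larger values. In bdg-8, 9 of the 10 genes rose with ATP, where 36.3% of all genes were called, 18.7% higher and 17.7% lower. All 9 calls held with replicates 1 and 2 alone, where 4852 of all genes were called, against 7631 with all replicates. ACA1 had 74.3, 58.3 and 62.4 CPM in mock and 484, 444 and 466 CPM with ATP, at 2.84 ± 0.07 (7.14-fold, edgeR adjusted p = 9.2e-21). ACA13 had 2.74, 2.02 and 2.51 CPM in mock and 18.9, 18.6 and 19.2 CPM with ATP, at 2.96 ± 0.11 (7.78-fold, edgeR adjusted p = 5.8e-17). For both genes the ATP libraries of the mutant lay above every ATP library of Col-0, and its mock means were higher too, by 0.29 for ACA1 and 0.47 for ACA13.

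CAX3 had 19.1, 14.1 and 16.6 CPM in bdg-8 mock and 40.9, 34.7 and 37.3 CPM with ATP. Its ATP libraries were all well clear of the mock libraries, at 1.18 ± 0.09 (2.27-fold, edgeR adjusted p = 1.8e-10). CAX1 rose as well, from 242, 214 and 224 CPM to 318, 279 and 292 CPM, at 0.39 ± 0.07 (edgeR adjusted p = 7.6e-05). The other rises were 0.88 ± 0.06 for ACA10, 0.81 ± 0.07 for ACA11, 0.42 ± 0.05 for ACA8, 0.27 ± 0.05 for ACA2 and 0.20 ± 0.04 for ACA4. ACA12 was the exception at -0.27 ± 0.20 (edgeR adjusted p = 0.32), with 9.52 to 16.7 CPM in mock and 8.97 to 12.2 CPM with ATP. It was also the only one of the 10 genes whose groups overlapped, where groups did not overlap for 45.2% of all genes.

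The response was higher in bdg-8 than in Col-0 for ACA1, CAX3 and CAX1 and lower for none of the 10 genes, where 7.91% of all genes differed, 5.76% higher and 2.15% lower. These differences share the Col-0 libraries with those of p2k1-3. ACA1 differed by 0.68 ± 0.09 (edgeR adjusted p = 1.6e-05), a call that held in all 20 alternatives. CAX3 differed by 0.80 ± 0.14 (edgeR adjusted p = 3.0e-04), and by 0.79 without replicate 3, where the edgeR adjusted p was 0.097. CAX1 differed by 0.33 ± 0.10 (edgeR adjusted p = 0.041), and 10 of 20 alternatives did not keep that call. It was lost without Col-0 mock replicates 2 or 3, Col-0 ATP replicates 2 or 3, bdg-8 mock replicates 2 or 3, or bdg-8 ATP replicates 1 or 3, with values of 0.28 to 0.34. ACA13 had a difference of 0.49 ± 0.18 (edgeR adjusted p = 0.12) and ACA10 of 0.27 ± 0.09 (edgeR adjusted p = 0.065), neither of them called. However, ACA10 passed with DESeq2 (0.28), with RLE scaling (0.28), without replicate 1 (0.30) and without bdg-8 mock replicate 1 (0.36).

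In the double mutant, 7 genes rose with ATP, where 33.7% of all genes were called, 17.1% higher and 16.5% lower. These 7 calls held with replicates 1 and 2 alone, where 4269 of all genes were called, against 7070 with all replicates. ACA1 had 62.0, 68.7 and 62.3 CPM in mock and 404, 390 and 388 CPM with ATP, at 2.61 ± 0.07 (6.12-fold, edgeR adjusted p = 4.4e-20). ACA13 had 3.28, 2.32 and 2.65 CPM in mock and 15.0, 14.6 and 15.6 CPM with ATP, at 2.45 ± 0.11 (5.45-fold, edgeR adjusted p = 2.7e-15). Both genes stood between Col-0 and bdg-8 with ATP, and no library of one group overlapped with those of another. CAX3 had 24.6, 21.9 and 23.7 CPM in mock, above all Col-0 mock libraries, and 42.8, 37.2 and 39.1 CPM with ATP, at 0.76 ± 0.09 (edgeR adjusted p = 2.3e-07).

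The remaining rises in the double mutant were 0.81 ± 0.06 for ACA10, 0.80 ± 0.07 for ACA11, 0.31 ± 0.05 for ACA8 and 0.27 ± 0.05 for ACA2. ACA4 had a value of 0.09 ± 0.04 (edgeR adjusted p = 0.053) that passed in 6 of 14 alternatives, among them those without p2k1-3 bdg-8 mock replicate 2 (0.11) or p2k1-3 bdg-8 ATP replicate 2 (0.11). CAX1 had 0.17 ± 0.07 (edgeR adjusted p = 0.067) and passed in 3 of 14, among them that without p2k1-3 bdg-8 ATP replicate 2 (0.24). ACA12 had 0.31 ± 0.19 (edgeR adjusted p = 0.24; called at 0.32 when the other groups were left out of the fit), with 12.7 to 14.9 CPM in mock and 14.7 to 18.3 CPM with ATP. By library, 8 genes lay higher with ATP and none lower, where 44.3% of all genes did not overlap.

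Against p2k1-3, the double mutant showed what bdg-8 adds where the receptor is mutated. The response was higher for 5 genes and lower for none, where 16.2% of all genes differed, 9.85% higher and 6.38% lower. ACA13 differed by 1.70 ± 0.18 (edgeR adjusted p = 1.2e-07), ACA1 by 1.25 ± 0.09 (edgeR adjusted p = 7.7e-10) and ACA2 by 0.37 ± 0.07 (edgeR adjusted p = 4.5e-04), and these calls held in all 20 alternatives. ACA11 (0.53 ± 0.10, edgeR adjusted p = 3.6e-04) and ACA10 (0.49 ± 0.09, edgeR adjusted p = 2.2e-04) lost the call without replicate 3 only, at edgeR adjusted p of 0.11 and 0.058. CAX3 had a value of 0.23 ± 0.14 and CAX1 of -0.05 ± 0.10, neither of them called.

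Against bdg-8, the double mutant showed no called difference in the response of the 10 genes, where 0.638% of all genes were called by edgeR, 0.152% higher and 0.486% lower. DESeq2 called 0 as well, and 6 genes had an unadjusted edgeR p under 0.05 (ACA1, ACA4, ACA12, ACA13, CAX1 and CAX3). The values were -0.22 ± 0.09 for ACA1, -0.51 ± 0.17 for ACA13, -0.42 ± 0.13 for CAX3, -0.22 ± 0.10 for CAX1 and 0.58 ± 0.28 for ACA12. The edgeR adjusted p of these 5 was 0.17 to 0.46. Without replicate 1, ACA1 (-0.34, edgeR adjusted p = 0.015) and CAX3 (-0.49, edgeR adjusted p = 0.030) were called, and without bdg-8 mock replicate 1 alone ACA1 was called (-0.33, edgeR adjusted p = 0.047). A threshold that is missed does not show that the responses were alike.

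**Figure D4:**
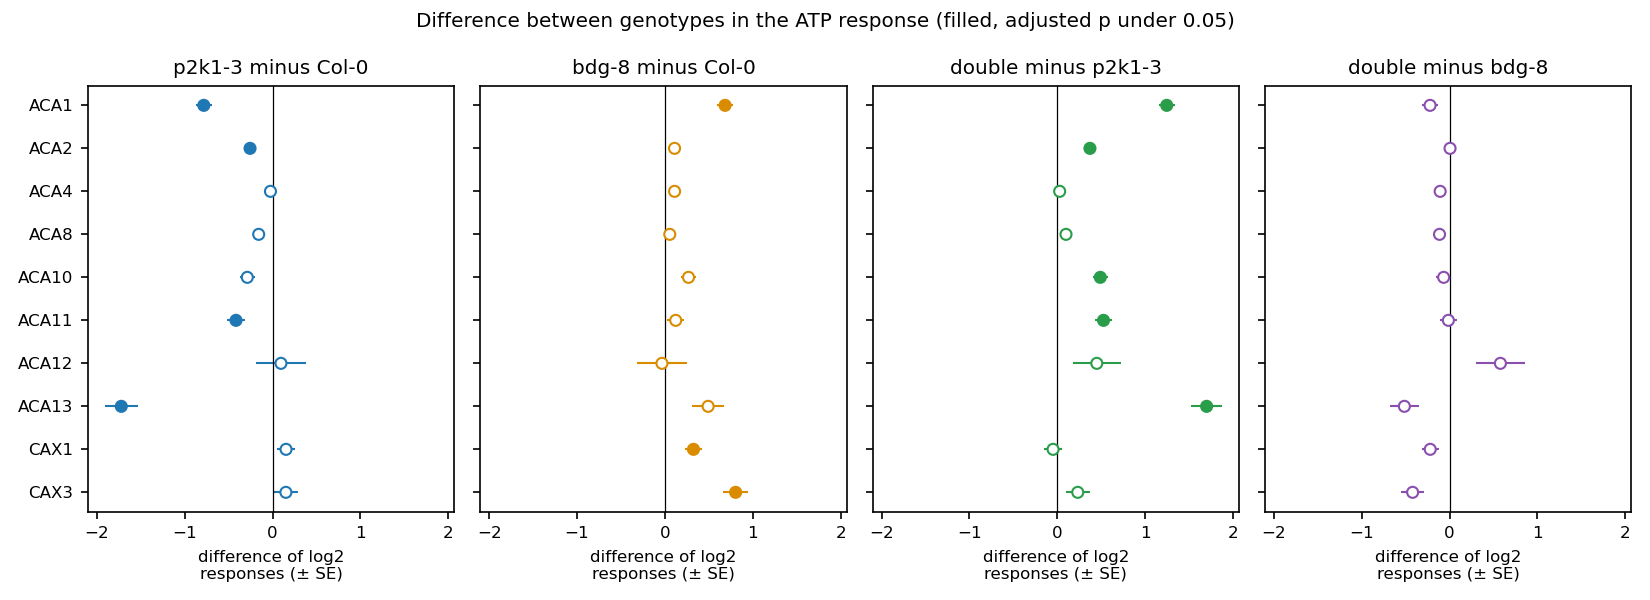
Difference between genotypes in the log2 ATP response of each gene, with bars of 1 SE from edgeR; filled points passed an adjusted p of 0.05. ACA1 and ACA13 lie left of 0 for p2k1-3 minus Col-0 (-0.78 and -1.72) and right of 0 for the double mutant minus p2k1-3 (1.25 and 1.70); no point passed for the double mutant minus bdg-8.

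The genotypes were also compared within a treatment. In mock, bdg-8 differed from Col-0 in 8 of the 10 genes, 6 higher and 2 lower, where 36.5% of all genes were called, 18.0% higher and 18.5% lower. ACA11 (0.39 ± 0.07), ACA8 (0.31 ± 0.05) and ACA4 (-0.23 ± 0.04) were called in all 14 alternatives (edgeR adjusted p of 2.1e-05 to 1.5e-04). ACA1 (0.29 ± 0.07), ACA10 (0.27 ± 0.06) and ACA2 (0.22 ± 0.05) lost the call in 1 of 14 each. ACA13 (0.47 ± 0.16, edgeR adjusted p = 0.022) was lost without Col-0 mock replicates 1 (0.39) or 2 (0.43) or bdg-8 mock replicates 1 (0.37) or 3 (0.44). CAX1 (-0.18 ± 0.07, edgeR adjusted p = 0.048) was lost without Col-0 mock replicates 2 (-0.13) or 3 (-0.19) or bdg-8 mock replicates 2 (-0.14) or 3 (-0.17). With replicates 1 and 2 alone 4 of the 10 genes were called (ACA2, ACA4, ACA8 and ACA11), where 3170 of all genes were called, against 7662 with all replicates. Without replicate 2, ACA12 (0.62) and CAX3 (0.27) were called too.

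With ATP, bdg-8 was above Col-0 for 7 genes and below it for ACA4, where 45.8% of all genes were called, 24.5% higher and 21.3% lower. ACA1 was higher by 0.98 ± 0.06 (1.97-fold, edgeR adjusted p = 1.7e-11), ACA13 by 0.96 ± 0.09 (edgeR adjusted p = 9.6e-09) and CAX3 by 0.92 ± 0.09 (edgeR adjusted p = 2.4e-08). ACA10, ACA11, ACA8 and ACA2 were higher by 0.33 to 0.54. ACA4 had -0.12 ± 0.04 (edgeR adjusted p = 0.0064), and lost the call without replicate 1 (-0.10) or replicate 3 (-0.13); the other 7 calls held in all 14 alternatives. CAX1 (0.15 ± 0.07) was called only without replicate 2 of all groups (0.17) or without bdg-8 ATP replicate 2 (0.20). By library, 8 genes were higher and ACA4 lower without overlap, where 51.7% of all genes did not overlap.

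Markers of tissue moved with the bdg-8 genotype. Of the green tissue markers 5 of 5 were lower in bdg-8 than in Col-0, in mock (median -0.45) and with ATP (median -0.42), and so were 5 of 5 mitotic markers. Root hair markers were higher in 2 of 5 cases in mock and 3 of 5 with ATP. Over all genes, 18.5% were lower and 18.0% higher in mock, and 21.3% lower and 24.5% higher with ATP. The summed green tissue level was 36208 to 39531 CPM in Col-0 mock and 23712 to 31635 CPM in bdg-8 mock, and the summed root hair level 102 to 134 CPM and 128 to 165 CPM. Root endodermis markers summed to 22.9 to 30.2 CPM and 24.8 to 25.3 CPM. The mitotic markers summed to 156 to 178 CPM in Col-0 mock and 129 to 139 CPM in bdg-8 mock. CASP5 was the scarcest marker, with 0.470 to 0.777 CPM in Col-0 mock and 0.129 to 0.209 CPM in bdg-8 mock, and was at 0 in at least 1 library of the double mutant under each treatment. The part of these markers in the genotype differences was not tested. With ATP in Col-0, 0 of 5 green tissue, 0 of 5 root endodermis and 0 of 5 mitotic markers were called, and 1 of 5 root hair markers fell (EXPA18, -0.34). In p2k1-3 ATP lowered 3 root hair and 2 endodermis markers, and in bdg-8 1 green tissue and 1 endodermis marker. The double mutant had 1 green tissue, 3 root hair and 2 endodermis markers lowered. Over all genes, ATP lowered 8.67% in Col-0, 8.53% in p2k1-3, 17.7% in bdg-8 and 16.5% in the double mutant. AUR1, a mitotic marker, rose in p2k1-3 (0.26) and the double mutant (0.25), where 11.9% and 17.1% of all genes rose.

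Between p2k1-3 and Col-0 fewer of the 10 genes were called than between bdg-8 and Col-0, 2 in mock and 3 with ATP. In mock ACA2 (0.20 ± 0.05, edgeR adjusted p = 0.018) and ACA11 (0.28 ± 0.07, edgeR adjusted p = 0.019) were higher, where 5.29% of all genes were called, 3.41% higher and 1.89% lower. By edgeR 0 of the 10 genes were called with replicates 1 and 2 alone, where 85 of all genes were called, against 1111 with all replicates. Both calls were lost without Col-0 mock replicates 1 or 3 or p2k1-3 mock replicates 2 or 3, with values of 0.16 to 0.21 for ACA2 and 0.20 to 0.28 for ACA11. Without replicate 1, 4 genes were called, among them ACA1 (0.20), ACA8 (-0.15) and ACA10 (0.22). With ATP ACA1 (-0.61 ± 0.06, edgeR adjusted p = 5.9e-07) and ACA13 (-1.22 ± 0.11, edgeR adjusted p = 6.4e-08) were lower in all 14 alternatives, where 6.67% of all genes were called, 5.13% lower and 1.54% higher. ACA8 was lower too (-0.28 ± 0.05, edgeR adjusted p = 3.2e-04), though not without replicate 3 (-0.27, edgeR adjusted p = 0.15). Of the tissue markers 0 were called in mock and 1 root endodermis marker was lower with ATP, and their part was not tested.

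Adding bdg-8 to p2k1-3 gave higher levels of ACA8 (0.43 ± 0.05), CAX3 (0.73 ± 0.10) and ACA10 (0.19 ± 0.06) and a lower level of ACA4 (-0.18 ± 0.04) in mock, where 31.2% of all genes were called, 15.1% higher and 16.1% lower. The calls of ACA8 and CAX3 held in all 14 alternatives, and that of ACA4 was lost without replicate 3 (-0.17, edgeR adjusted p = 0.073). ACA10 was lost with replicates 1 and 2 alone (0.18, edgeR adjusted p = 0.26) and without replicate 1 (0.11). It was also lost without p2k1-3 mock replicates 1 (0.14) or 3 (0.18) or p2k1-3 bdg-8 mock replicates 1 (0.16) or 3 (0.19). ACA11 (0.12 ± 0.07) was called without replicate 2 of all groups (0.18) or p2k1-3 mock replicate 2 (0.20). With ATP 8 genes were higher and ACA4 lower, where 53.9% of all genes were called, 28.8% higher and 25.2% lower. The rises were led by ACA13 (1.85 ± 0.10, 3.60-fold, edgeR adjusted p = 7.4e-13) and ACA1 (1.35 ± 0.06, edgeR adjusted p = 4.1e-14). ACA12 was among them at 0.55 ± 0.19 (edgeR adjusted p = 0.020), its only call in the 16 comparisons. That call was lost without p2k1-3 ATP replicate 1 (0.34) or p2k1-3 bdg-8 ATP replicates 1 (0.48) or 3 (0.53), and without replicates 1 (0.27) or 3 (0.57) of every group. ACA4 (-0.15 ± 0.04, edgeR adjusted p = 9.3e-04) lost its call without replicate 3 (-0.14, edgeR adjusted p = 0.080), so that 7 of the 9 genes were called with replicates 1 and 2 alone. At that setting 7844 of all genes were called, against 11323 with all replicates. Tissue markers moved here as well. In mock 3 of 5 green tissue, 3 of 5 mitotic and 3 of 5 root endodermis markers were lower and 3 of 5 root hair markers higher in the double mutant than in p2k1-3. With ATP 5 green tissue (median -0.54), 4 mitotic and 3 root endodermis markers were lower and 1 root hair marker higher, and their part was not tested.

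Adding p2k1-3 to bdg-8 gave calls for CAX3 in mock and for ACA1 and ACA13 with ATP. For the other genes, a missed threshold does not show that the levels were alike. In mock CAX3 was higher in the double mutant than in bdg-8 (0.49 ± 0.10, edgeR adjusted p = 0.013), where 0.667% of all genes were called, 0.381% higher and 0.286% lower. That call was lost with replicates 1 and 2 alone (0.49, edgeR adjusted p = 0.98), with the compared groups only (0.49, edgeR adjusted p = 0.078), and without bdg-8 mock replicates 2 (0.39) or 3 (0.50) or p2k1-3 bdg-8 mock replicates 1 (0.46) or 3 (0.49). With ATP ACA1 (-0.24 ± 0.06, edgeR adjusted p = 0.020) and ACA13 (-0.33 ± 0.09, edgeR adjusted p = 0.023) were lower, where 6.66% of all genes were called, 4.58% lower and 2.08% higher. Neither was called with replicates 1 and 2 alone (edgeR adjusted p = 0.47 and 0.41). ACA1 was lost without bdg-8 ATP replicates 1 (-0.21) or 3 (-0.24) or p2k1-3 bdg-8 ATP replicates 2 (-0.24) or 3 (-0.23). ACA13 was lost without bdg-8 ATP replicates 2 (-0.34) or 3 (-0.32) or p2k1-3 bdg-8 ATP replicates 1 (-0.33) or 2 (-0.31). ACA8 (-0.11 ± 0.05) was called without replicate 1 of all groups (-0.15) or bdg-8 ATP replicate 1 (-0.16). ACA12 (0.61 ± 0.20, edgeR adjusted p = 0.064) was called in 4 of 14 alternatives. These were the compared groups only (0.61, edgeR adjusted p = 0.0069), no filter (0.61), and leaving out replicate 1 (0.63) or 2 (0.57) of all groups. With ATP 2 root endodermis markers and 1 root hair marker were lower in the double mutant than in bdg-8, and their part was not tested.

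The 8 group means of log2 CPM describe how alike the members are. Pearson's r was 0.99 between ACA1 and ACA13 and 0.995 between ACA10 and ACA11, which share a treatment effect and the same libraries. ACA4 had r of 0.30 with ACA1, and ACA12 had r of -0.00 with ACA1 and 0.03 with ACA13. Among 17546 genes, those most like ACA1 were GILP, a LITAF domain protein gene, the transcription factor gene bZIP68 and the nudix hydrolase gene NUDT7, with r of at least 0.999, and 1103 genes exceeded 0.95. Those most like ACA13 were the ankyrin repeat gene AT1G14480 (0.997), the perforin domain gene AT1G14780 (0.996) and the NAC factor gene NTM1 (0.996), with 898 genes above 0.95. The genes nearest to ACA10 were AT3G25510, AT1G67720 and GTE7, and those nearest to ACA11 were AT4G13330, DAR3 and AT4G24110. CAX3 lay nearest to IM, of the alternative oxidase family (0.997), then AT3G46450 and PA2. ACA2 lay nearest to AT3G28940, 4CL5 and P4H5, ACA4 to AT1G62780, HEMB1 and EMB1303, and ACA8 to SCPL49, AT3G52748 and AT5G23575. ACA12 (AT4G11630, SLO1 and CSD2) and CAX1 (BCAT-2, AT4G03020 and MPK20) had few genes of similar pattern, with 5 and 3 above 0.95.

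Other transporters of calcium were read from a list of 16 genes, of which 15 were tested and CAX6 was not. With ATP, 6 rose and 1 fell in Col-0, 4 and 2 in p2k1-3, 7 and 2 in bdg-8, and 6 and 3 in the double mutant, with list medians of 0.01, -0.02, 0.20 and 0.02. Over all genes the shares called higher and lower were 13.2% and 8.67% in Col-0, 11.9% and 8.53% in p2k1-3, 18.7% and 17.7% in bdg-8, and 17.1% and 16.5% in the double mutant. AT5G17850, annotated as a member of the sodium/calcium exchanger family, rose most, by 1.29 ± 0.13 in Col-0, 0.65 ± 0.13 in p2k1-3, 1.46 ± 0.12 in bdg-8 and 1.27 ± 0.13 in the double mutant. CAX7, CAX2 and ECA4 are named here with their values known. The gene next in locus number, CAX7 (AT5G17860), fell by 0.88 on the log2 scale in Col-0, by 0.50 in p2k1-3 and by 0.48 in bdg-8, and had -0.02 ± 0.14 in the double mutant. CAX2, a further vacuolar exchanger gene, rose by 0.57 ± 0.05, 0.29 ± 0.05, 0.88 ± 0.05 and 0.71 ± 0.04 in the same order. ECA4, of the family of calcium ATPases without the calmodulin-regulated tail, rose by 0.42 ± 0.04, 0.15 ± 0.04, 0.65 ± 0.04 and 0.56 ± 0.04. ECA1 (-0.05 to 0.00) and ECA3 (-0.02 to 0.03) of that family were not called in any genotype. The responses of CAX2 and ECA4 were lower in p2k1-3 than in Col-0 (-0.28 ± 0.07 and -0.27 ± 0.05) and higher in bdg-8 (0.32 ± 0.06 and 0.23 ± 0.05), all 4 of them called by edgeR.

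The vacuolar proton pumps, which supply the gradient that the exchangers use, had log2 values with ATP within -0.03 and 0.21 in all genotypes. Of 13 genes 1 rose with ATP in Col-0, 0 in p2k1-3, 8 in bdg-8 and 0 in the double mutant, and none fell, where 13.2%, 11.9%, 18.7% and 17.1% of all genes rose. The values in bdg-8 ran from 0.03 to 0.21. The rise in Col-0 was that of VHA-D (AT3G58730; 0.14 ± 0.04). VHP1, the vacuolar pyrophosphatase gene, had values of -0.01 to 0.07. Where edgeR called 0, values ran from -0.03 to 0.09 in p2k1-3, with 2 genes at an unadjusted p under 0.05 (VHA-d1 and VHA-d2), and from -0.02 to 0.06 in the double mutant, with 0 such genes. Of 7 calmodulin genes, 2 rose in Col-0, 5 in bdg-8 and 3 in the double mutant, and 1 fell in p2k1-3 (CAM6, -0.12 ± 0.04). CAM2 had the largest values, at 0.49 ± 0.11 in Col-0, 1.09 ± 0.10 in bdg-8 and 1.01 ± 0.10 in the double mutant, where it rose, and 0.18 ± 0.11 in p2k1-3, where it was not called. CAM3 rose by 0.27 ± 0.03, 0.42 ± 0.03 and 0.27 ± 0.03 in the same 3 genotypes.

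**Figure D5:**
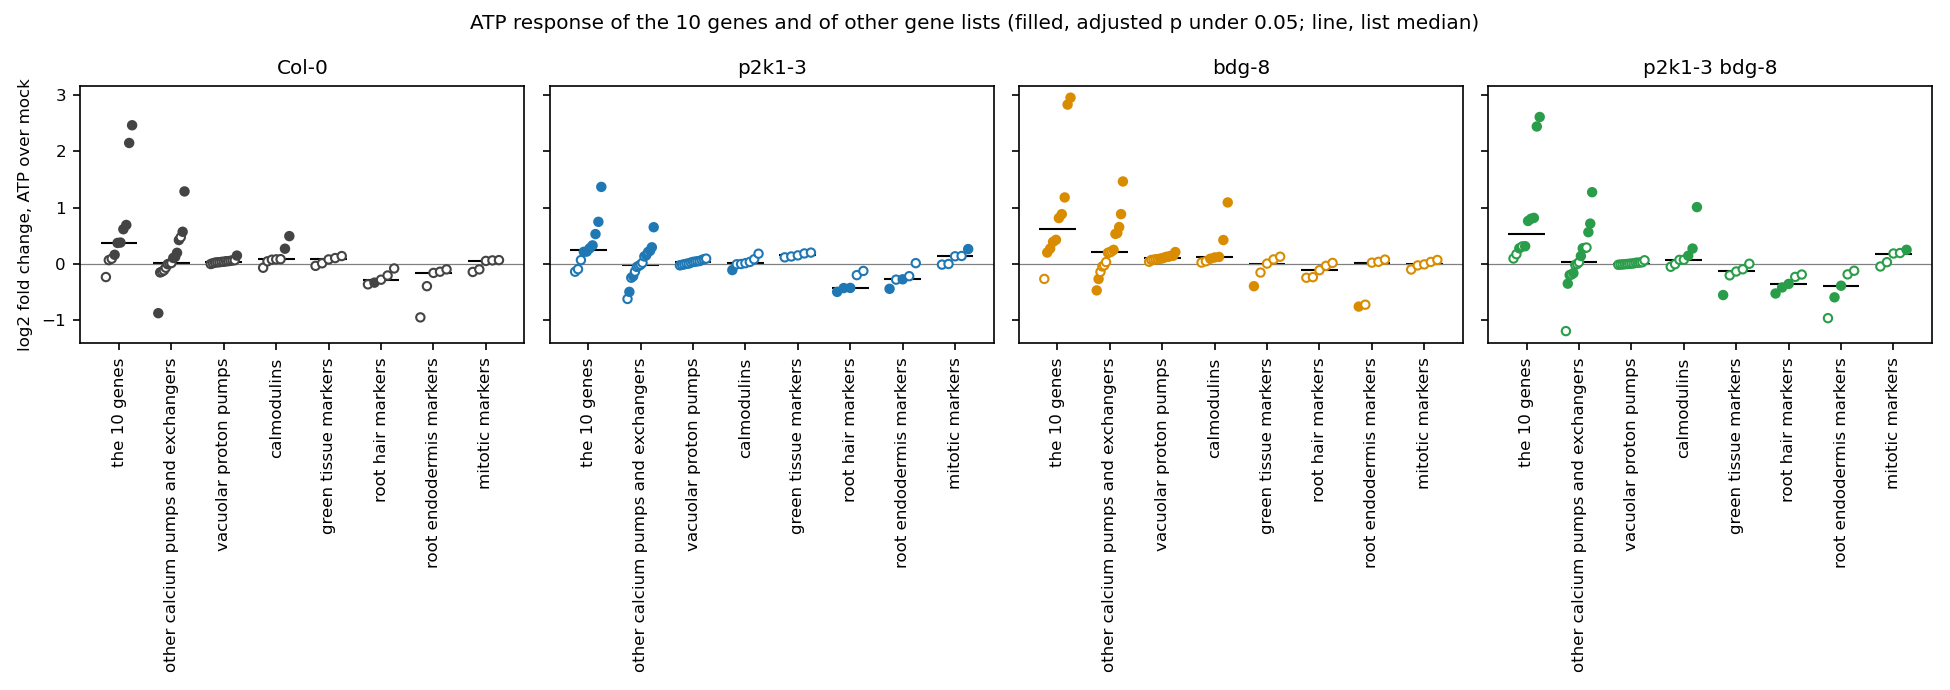
Log2 fold change of ATP over mock for the 10 genes, other lists of transport genes and tissue markers in each genotype; filled points passed an edgeR adjusted p of 0.05 and lines are list medians. The median of the 10 genes lies at 0.37 in Col-0, above the vacuolar proton pumps at 0.03, and the proton pumps of Col-0 stay within -0.01 and 0.14.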

How the data were processed

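Polyadenylated RNA of whole seedlings was sequenced on a NovaSeq, per the labels' protocols. Per the submitters' processing notes, cutadapt 1.13, STAR 2.7.4a, HTSeq 0.13.5 and MultiQC 1.9 were used; the genome build, annotation and strand setting are not given in the sources used here. The authors deposited 1 table of raw read counts per gene for each of 24 libraries. The 5 summary lines, equal to 7.60 to 12.2% of all counted reads, entered neither the library sizes nor any test. Depth ran from 25856588 to 35239775 counts in genes. Counting error weighs most on ACA13 in mock. It is also larger than for the abundant members in ACA13 in p2k1-3 with ATP (4.00 to 4.32 CPM) and in ACA12 (8.44 to 13.4 CPM in Col-0 mock).

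Genes were filtered with filterByExpr over the 8 groups, which left 20995, and libraries were scaled by TMM. edgeR 4.0.16 (R 4.3.3, limma 3.58.1) fitted 1 mean per group over all 24 libraries by quasi-likelihood, and 16 comparisons were tested, each with Benjamini-Hochberg adjustment over all genes and a threshold of 0.05. Interaction terms tested the difference of ATP responses. SE is the log2 fold change divided by the square root of F. The steps were tested on simulated data. DESeq2 1.42.0, RLE scaling, no filter, a fit of the compared groups only, a replicate block and leaving out replicates or single libraries were tried as alternatives. The ratios within pairs and their alternatives were chosen after seeing the data. The members and gene lists were chosen with earlier results of these data known. All members are named; of the lists, genes called with ATP at an absolute log2 fold change of at least 1 and up to 4 that were not called, and for likeness the 3 nearest genes. Gene positions, lengths and upstream windows are from RefSeq, TAIR10.1, matched by locus identifier.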

Additional observations from a re-analysis of the deposited data

Results flagged for a closer look

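The ATP response differed between genotypes, by edgeR's test of the difference itself, in 12 cases among the 10 genes. Against Col-0, p2k1-3 had a lower response for ACA13 (-1.72), ACA1 (-0.78), ACA11 (-0.42) and ACA2 (-0.26), as differences of log2 fold changes. Against Col-0, bdg-8 had a higher response for CAX3 (0.80), ACA1 (0.68) and CAX1 (0.33). Against p2k1-3, the double mutant had a higher response for ACA13 (1.70), ACA1 (1.25), ACA11 (0.53), ACA10 (0.49) and ACA2 (0.37). Of these, ACA1 in each of the 3 comparisons, ACA13 in both comparisons with p2k1-3 and ACA2 between the double mutant and p2k1-3 were called in all alternatives run. Over all genes, 4.48% were called for p2k1-3 against Col-0, 7.91% for bdg-8 against Col-0 and 16.2% for the double mutant against p2k1-3. For the double mutant against bdg-8, 0 of the 10 genes and 0.638% of all genes were called. No cause of the differences in response was tested.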

How the results depend on the processing

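No value of a member changed sign with its call in any alternative. Of 160 values, 157 kept their side of the threshold with DESeq2, 156 with RLE scaling, 159 without the filter and 153 with the compared groups only. The labels do not say what a replicate number shares, and only 9, 7 and 0 of 28 same-number pairs correlated above 0.1 for replicates 1, 2 and 3, so the block was not used in the results. However, for 7, 6 and 7 of 8 libraries the mean correlation with other groups was highest among libraries of their own number. This is a hint from the data that the numbers may mark something shared. The replicate block raised calls over all genes in all 16 comparisons (1111 to 1663 for p2k1-3 in mock and 1398 to 2004 for the double mutant against bdg-8 with ATP), kept 159 of 160 member values and made the ACA4 response of the double mutant a call (0.09, edgeR adjusted p = 0.043). For the double mutant against bdg-8 in mock, members called were 1, 2 with DESeq2 and 0 with the compared groups only; all genes called were 140, 214 with DESeq2, 273 with the block and 57 with the compared groups only. For their ATP response DESeq2 called 225 genes against 134.

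Leaving out replicates or single libraries gave these ranges of members called: ATP in p2k1-3 2 to 7, responses of p2k1-3 2 to 4, of bdg-8 1 to 4, of the double mutant against p2k1-3 3 to 5 and against bdg-8 0 to 2. In mock they were 0 to 4 for p2k1-3, 4 to 9 for bdg-8, 0 to 2 for the double mutant against bdg-8 and 2 to 6 against p2k1-3, and with ATP 2 to 5 for p2k1-3 and 0 to 4 for the double mutant against bdg-8. Without replicate 3, genes called with ATP went from 4585 to 2494 in Col-0, 4287 to 1883 in p2k1-3, 7631 to 4852 in bdg-8 and 7070 to 4269 in the double mutant. Response differences went from 940 to 149, 1660 to 458, 134 to 2 and 3406 to 1267 (p2k1-3, bdg-8, double mutant against bdg-8, against p2k1-3). Genotype differences went in that order from 1111 to 85, 7662 to 3170, 140 to 6 and 6555 to 2161 in mock, and with ATP from 1400 to 185, 9626 to 5636 and 1398 to 76 for the first 3. Without replicate 1, 413 response differences of the double mutant against bdg-8 were called, and in mock 2135 genes in p2k1-3 and 212 in the double mutant against bdg-8; without replicate 2 the last pair were 583 and 302. Fits without replicate 1 or 2 have the same size as those without replicate 3. They called 4564 and 4066 genes with ATP in Col-0 and 1064 and 876 response differences in p2k1-3. The cause of the drop without replicate 3 was not tested. Leaving out 1 library gave as few as 492 genes for p2k1-3 in mock and 905 with ATP, and for the double mutant against bdg-8 67 to 150 response differences, 40 to 215 genes in mock and 725 to 1433 with ATP. The depth limits ACA13 most in mock, at 44 to 65 counts per library in Col-0.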
